A study of Mus musculus with 8 samples.

Results

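The proteasome genes of Prmt5-null and control induced germinal center B cells (iGBs) were examined. They were taken as every gene of the expression table whose symbol begins with Psm, continues with one of the letters a to g, and ends in a number with an optional suffix. The rule found 50 of 39017 genes. They comprised 7 genes of the alpha ring and 7 of the beta ring of the 20S core, 3 immunoproteasome genes, 2 tissue-restricted core genes, 9 genes of the base and 8 of the lid of the 19S regulatory particle, 7 assembly chaperones, 5 activators, and 1 inhibitor. The last match, Psmc3ip, encodes a meiotic recombination factor and is no proteasome subunit, but the rule includes it. The symbols Sem1 and Ecpas do not match the rule; both genes are in the table under the older symbols Shfm1 and AI314180 and were counted with the partners of the proteasome.

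The proteasome is the protease that degrades ubiquitin-tagged proteins. Its barrel-shaped 20S core stacks alpha and beta rings, and only 3 of the constitutive beta subunits cut peptide bonds. The 19S particle caps the barrel: its base unfolds the substrate with a ring of ATPases, and its lid removes the ubiquitin chains. Lymphocytes also express the immunoproteasome subunits Psmb8, Psmb9 and Psmb10, which take the places of Psmb5, Psmb6 and Psmb7 during assembly and change which peptides are made for presentation on MHC class I.

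RNA was sequenced from 8 libraries of C57BL6/J mice, 1 mouse per library. The iGBs were grown from splenic B cells on 40LB cells, a fibroblast feeder line that supplies CD40 ligand and BAFF, with IL-4 at 1 ng/mL, and were harvested on day 4 after the feeder had been removed by elutriation. The Prmt5-null group carried loxP-flanked Prmt5 alleles and Cγ1-cre (libraries PRMT5-10617, PRMT5-10618, PRMT5-10770 and PRMT5-10771), and the controls carried Cγ1-cre alone (libraries CTRL-10650 and CTRL-10370 together with CTRL-10596 and CTRL-10597), so that Cre was present in both groups. Cγ1-cre is driven from the Ighg1 locus and acts in B cells once they are activated, so that the B cells had developed with Prmt5 present. The mice came from 2 experiments, and no label ties a mouse to an experiment. Values are normalized counts, that is, reads on the exons of a gene divided by a size factor for the library.

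Prmt5 itself was at 1291, 1994, 1060 and 1808 normalized counts in the Prmt5-null libraries PRMT5-10617, PRMT5-10618, PRMT5-10770 and PRMT5-10771, against 11084 to 13088 in the 4 controls. It fell by 2.98 on the log2 scale (SE 0.17, limma adjusted p = 6.1e-06), which followed the labels of all 8 libraries. The remaining reads show that some Prmt5 RNA was left, but not how much of it was intact. In the splicing values below, a Prmt5 exon was included at 0.027 to 0.304 in the group read as Prmt5-null. In the group read as control it was included at 0.989 to 1.00. Libraries held 36731721 to 50366174 reads on genes. All 7 B cell marker genes were expressed, and their sum was 158526 to 188765 in the Prmt5-null libraries and 156833 to 180231 in the controls. Of the 7, 1 (14.3%) passed the test, against 13.8% of all genes tested. It was Cd79a, which was lower (−0.74, limma adjusted p = 0.00033). By mean, 4 of the 7 were higher in the Prmt5-null group. Of 12 fibroblast markers, 11 had the higher mean in the Prmt5-null group. Of the 11 that were tested, 3 (27.3%) passed, against 13.8% of all genes tested in either direction. All 3 were higher (Col3a1, Col1a2 and Sparc). The fibroblast marker sum was 7840 to 13483 in the Prmt5-null and 5132 to 8934 in the control libraries. The myeloid sum was 37.0 to 117 against 29.6 to 119, and Cd3e was at 0 in every library. The summed T cell list was 314 to 469 against 666 to 788, nearly all of it from Lck, which B cells can also express. The fibroblast shift runs with genotype beside every result below, and its part in them was not tested.

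The sequences shown here belong to the genes on which the results turn. The first is the coding exon of Psma3 whose inclusion was lower in Prmt5-null cells, at chr12:70984652-70984755 on the plus strand of GRCm38, with the exon in capitals between 20 bases of the intron before it and 10 bases of the intron after it. The introns end in AG and begin with GT at the exon.
Psma3 exon: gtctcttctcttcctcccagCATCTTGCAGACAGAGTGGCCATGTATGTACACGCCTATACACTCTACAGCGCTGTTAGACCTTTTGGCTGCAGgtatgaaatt

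Promoters are shown for the members that were lower in Prmt5-null cells. RefSeq promoter windows on GRCm38.p6, from 250 bases before to 50 bases after the annotated start, were matched by symbol for 42 of the 50 members. Of the 4 members that fell, Psmb9 (chr17:34187281-34187580, minus strand), Psmd1 (chr1:86064369-86064668, plus strand) and Psmd11 (chr11:80428365-80428664, plus strand) had one. Capitals mark a match to a searched motif.
Psmb9: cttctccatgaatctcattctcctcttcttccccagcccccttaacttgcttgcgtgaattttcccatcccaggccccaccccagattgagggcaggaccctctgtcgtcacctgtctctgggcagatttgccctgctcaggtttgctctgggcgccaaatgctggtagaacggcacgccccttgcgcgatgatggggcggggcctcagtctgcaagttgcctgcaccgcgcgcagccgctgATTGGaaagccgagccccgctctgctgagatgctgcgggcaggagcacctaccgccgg
Psmd1: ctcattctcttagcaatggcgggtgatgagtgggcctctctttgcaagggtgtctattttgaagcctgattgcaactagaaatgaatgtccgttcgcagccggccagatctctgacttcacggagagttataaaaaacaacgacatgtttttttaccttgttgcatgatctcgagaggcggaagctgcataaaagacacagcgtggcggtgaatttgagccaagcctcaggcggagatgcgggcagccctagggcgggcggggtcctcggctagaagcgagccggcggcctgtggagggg
Psmd11: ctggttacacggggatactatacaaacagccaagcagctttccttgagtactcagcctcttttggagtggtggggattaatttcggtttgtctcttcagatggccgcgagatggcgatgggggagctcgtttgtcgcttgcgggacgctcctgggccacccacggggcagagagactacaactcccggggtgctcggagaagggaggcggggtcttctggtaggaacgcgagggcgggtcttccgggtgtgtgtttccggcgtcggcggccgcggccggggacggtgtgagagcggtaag

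Motif cores were searched on both strands. TGACNNNGC, the core of the antioxidant response element through which Nrf1 and Nrf2 act, was found in 6 of the 42 members (14.3%) and in 14.0% of the 27025 genes with a window. CCAAT was found in 15 members (35.7%) and in 41.1% of all genes. GAAANNGAA, the core of the interferon-stimulated response element, was found in 7 members (16.7%) and in 9.76% of all genes. Psmb5, which encodes the constitutive chymotrypsin-like subunit, Psmb6, Psmc6, Psmd12, Psmd9 and Psme4 held the antioxidant core. Of the printed promoters, only that of Psmb9 held a match, a CCAAT on the opposite strand that begins 8 bases before the start. These matches are letters in a window, and no binding was measured.

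Most proteasome genes differed little between the groups. Of the 50 members, 48 reached a mean of 10 normalized counts and were tested, and 4 of them (8.33%) passed at an adjusted p below 0.05, against 13.8% of all 16250 genes tested. All 4 were lower in Prmt5-null cells, where the background for that direction was 7.33%: Psmb9, Psmd1, Psmd11 and Psmd7. Only Psmb9 also changed by at least 1.5-fold, 1 of 48 members (2.08%) against 6.48% of all genes. Since 45 members averaged over 1000 normalized counts, the share was also taken among genes of that abundance, where 4 of 45 members (8.89%) and 15.5% of all genes passed. In these bulk samples, fewer cells of a type and less RNA per cell cannot be told apart.

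The median member changed by −0.02 on the log2 scale, and the median of all tested genes was 0.00. The median size of the change, sign aside, was 0.07 over the members, 0.19 over all tested genes and 0.14 over the 7140 genes above 1000 counts. Of the 44 members that did not pass, 42 had a 95% interval lying wholly within a 1.5-fold change in either direction, and 40 had an estimate within 0.2 of 0. The interval of Psmg4 reached furthest from 0, to −0.68. In 6 of 48 members (12.5%) the groups did not overlap, always with the Prmt5-null libraries lower, against 19.8% of all genes in either direction. Of all 16250 genes tested, the groups did not overlap in 1654 with the Prmt5-null libraries lower and in 1571 with them higher.

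**Figure D1:**
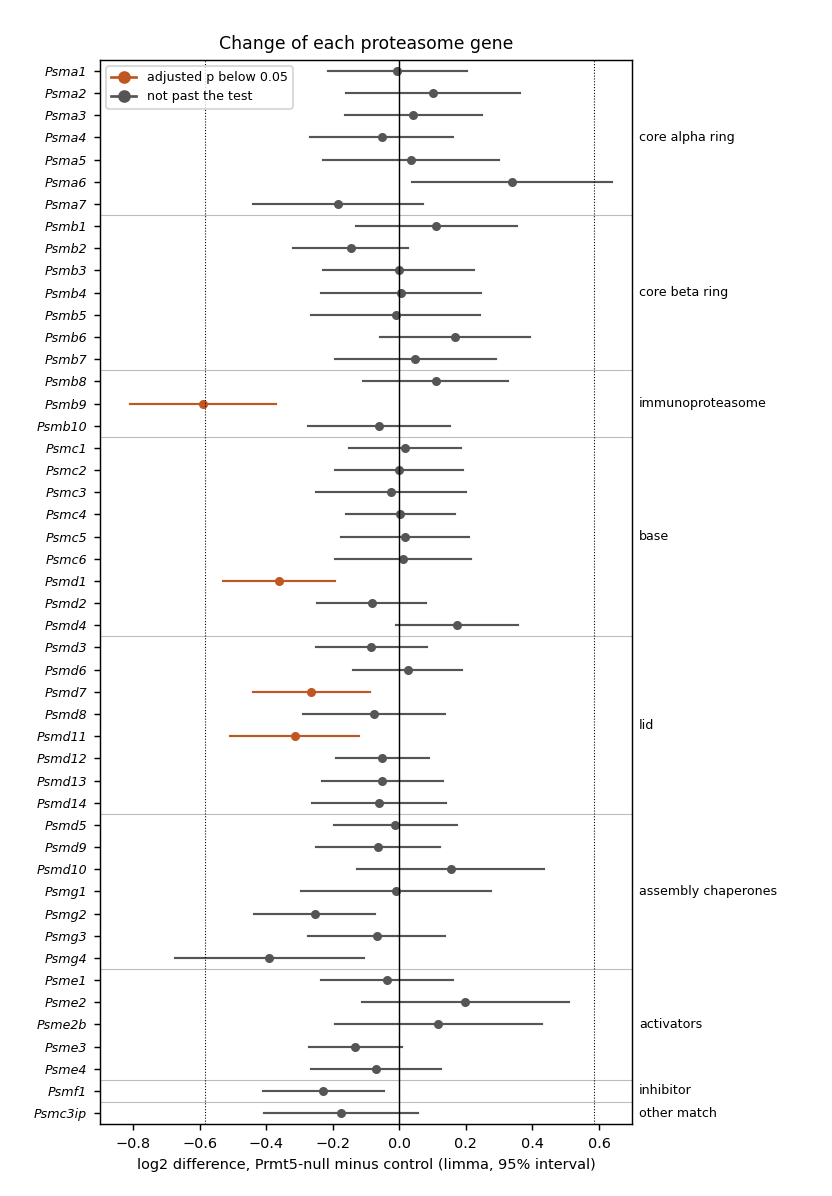
Log2 difference (Prmt5-null minus control) of the 48 tested members, by class, with the 95% interval from limma; dotted lines mark a 1.5-fold change and orange marks an adjusted p below 0.05. The 4 orange genes lie between −0.59 and −0.26, and the core and base genes other than Psmd1 and Psma6 lie within 0.2 of 0.

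The count of 4 rested partly on single libraries. It was 7 without the Prmt5-null library PRMT5-10770, when Psma7, Psmg2 and Psmg4 passed as well, all lower. It was 2 without Prmt5-null PRMT5-10617 or PRMT5-10771 or without control CTRL-10370 or CTRL-10597. The share of all genes that passed in these fits is not given here, so the counts have no background beside them. Psmb9 and Psmd1 passed in each of the 8 fits that left out 1 library. Psmd11 passed in 2 of the 8 and Psmd7 in 1.

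Psmb9 (ENSMUSG00000096727, chr17:34181987-34187764, minus strand) encodes the inducible subunit that takes the place of Psmb6. It was at 3671, 3989, 4439 and 3898 normalized counts in the Prmt5-null libraries PRMT5-10617, PRMT5-10618, PRMT5-10770 and PRMT5-10771. Among the controls it was at 6088 in CTRL-10650, 7008 in CTRL-10370, 6039 in CTRL-10596 and 5042 in CTRL-10597, and values of other genes follow the same order of libraries. The highest Prmt5-null library lay below the lowest control. The mean was 3999 ± 322 against 6044 ± 803 (SD, n = 4 each), a difference of −0.59 on the log2 scale (SE 0.10, limma adjusted p = 0.0028), and Psmb9 fell by 33.5%. Leaving out 1 library moved the difference between −0.67 and −0.52. It lay just past the 1.5-fold limit of 0.58 and came under it without PRMT5-10617, PRMT5-10771, CTRL-10650 or CTRL-10370, and with quantile normalization.

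Psmb8, which replaces the chymotrypsin-like Psmb5, lies close by on chromosome 17 (34197721 to 34201454). It was at 16155, 14757, 19642 and 15664 in the Prmt5-null libraries and 15433, 16870, 15270 and 13641 in the controls. The groups overlapped, and the difference of 0.11 (SE 0.10, adjusted p = 0.51) did not pass. Psmb10, which replaces the trypsin-like Psmb7, was at 2316, 2122, 2780 and 2305 against 2437, 2750, 2517 and 2210. Its difference was −0.06 (SE 0.10, adjusted p = 0.73), with an interval from −0.27 to 0.15. Thus 1 of the 3 immunoproteasome genes (33.3%) fell, and the intervals of the other 2 include 0. Of all genes tested 13.8% passed in either direction and 7.33% were lower, and 3 genes are too few to read a share from.

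Psmb9 stands head to head with Tap1, the peptide transporter gene, on the opposite strand. The genes overlap by 212 bases, and their promoter windows share 275 of 300 bases. Tap1 was at 14491, 14722, 16572 and 15291 in the Prmt5-null libraries and 14497, 16110, 14642 and 13333 in the controls. Its difference of 0.06 (SE 0.08, adjusted p = 0.66) did not pass, unlike that of Psmb9, although the difference between the 2 genes was not itself tested. The strand setting of the counting is not given in the sources used here, so reads from the overlap could have been assigned to either gene or to none. Psmb8 is likewise overlapped for 2139 bases by Gm20496 on the other strand, and Psmb10 for 2710 bases by Gm16156.

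**Figure D2:**
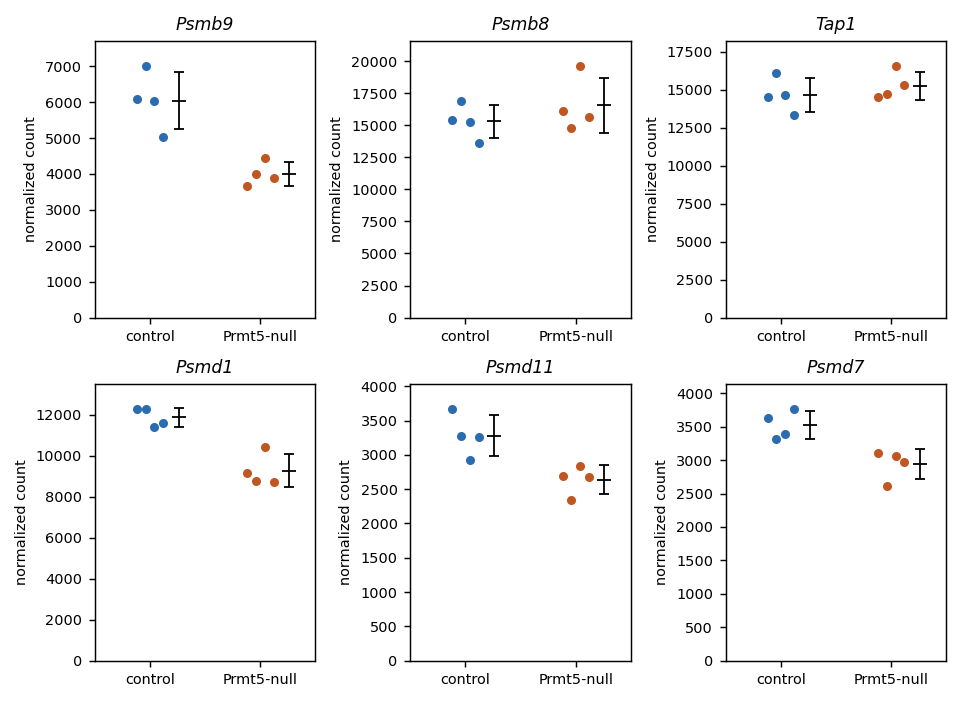
Normalized counts of Psmb9, its neighbours Psmb8 and Tap1, and the other 3 members that passed the test, in each control (blue) and Prmt5-null (orange) library; the bar is the mean with the SD of 4 libraries. Psmb9, Psmd1, Psmd11 and Psmd7 show no overlap between the groups, while Psmb8 and Tap1 do overlap.

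The catalytic subunits that these genes replace did not pass the test. Psmb5 was at 3676, 3009, 4634 and 3408 in the Prmt5-null libraries and 3743, 3944, 3617 and 3372 in the controls (difference −0.01, SE 0.12, adjusted p = 0.97). Psmb6, the caspase-like subunit, was at 8044, 7221, 9808 and 7159 against 7051, 7875, 7028 and 6575 (0.17, SE 0.10, adjusted p = 0.31). Psmb7 was at 10057, 8716, 12819 and 9399 against 9707, 10914, 9332 and 9340 (0.05, SE 0.11, adjusted p = 0.81). In all 3 the groups overlapped, and library PRMT5-10770 was the highest.

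Each inducible gene was next set against its constitutive partner within a library, since a ratio cancels what moves both genes alike. The ratio of Psmb9 to Psmb6 was 0.456, 0.552, 0.453 and 0.544 in the Prmt5-null libraries and 0.863, 0.890, 0.859 and 0.767 in the controls. None of the Prmt5-null ratios reached the lowest control ratio. The log2 ratio was −1.0 ± 0.16 against −0.25 ± 0.09 (SD, n = 4 each), a difference of −0.76 (exact two-sided permutation test, p = 0.029). That is the smallest p that 4 against 4 libraries can give, and it became 0.086 after adjustment over the 3 ratios. A single ratio at the smallest p cannot come below 0.05 after this adjustment, whatever its size. The adjusted value therefore decides nothing about this ratio.

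The ratio of Psmb8 to Psmb5 ranged from 4.24 to 4.90 in the Prmt5-null libraries and from 4.04 to 4.28 in the controls. Its log2 difference of 0.12 had an exact permutation p = 0.057 (adjusted over the 3 ratios, 0.086). The ratio of Psmb10 to Psmb7 ranged from 0.217 to 0.245 against 0.237 to 0.270, a log2 difference of −0.11 (exact permutation p = 0.14, adjusted 0.14). Both pairs of groups overlapped.

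**Figure D3:**
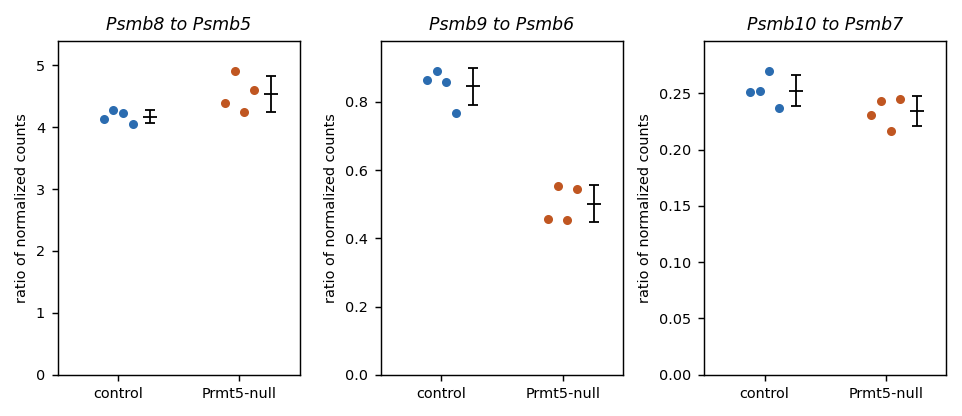
Ratio of the normalized count of each immunoproteasome gene to that of the constitutive gene it replaces, in each control (blue) and Prmt5-null (orange) library, with the mean and SD of 4 libraries. Psmb9 to Psmb6 lies between 0.453 and 0.552 in Prmt5-null and between 0.767 and 0.890 in control libraries, and the other ratios overlap.

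Per kb of exon, Psmb8 made up 51.8% to 53.2% of the sum of Psmb8 and Psmb5 in the controls and 53.0% to 56.6% in the Prmt5-null libraries. Psmb10 made up 32.2% to 35.1% of its sum with Psmb7 in the controls and 30.3% to 33.0% in Prmt5-null cells. For Psmb9 with Psmb6 the share was 28.2% to 31.3% in the controls and 18.8% to 22.0% in Prmt5-null cells. These shares depend on the exon length used: by the longest transcript the control shares were 69.7% for Psmb8, 18.3% for Psmb10 and 33.3% for Psmb9.

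No gene of the 20S rings passed the test. The 7 alpha genes, whose ring gates the entrance to the core, had a median change of 0.03 and ranged from −0.19 to 0.34. The 7 beta genes had a median of 0.00 and ranged from −0.15 to 0.17. The highest difference in the alpha ring was that of Psma6, at 13085, 10516, 17212 and 11539 in the Prmt5-null libraries and 10483, 11771, 9310 and 9315 in the controls (0.34, SE 0.14, adjusted p = 0.13). Its groups overlapped. Of the 8 fits that left out 1 library it passed in the one without PRMT5-10618, at 0.43 with an adjusted p of 0.047.

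The lowest alpha difference was that of Psma7, at 8998, 7878, 11576 and 7929 against 10301, 11276, 9989 and 9380 (−0.19, SE 0.12, adjusted p = 0.32). Library PRMT5-10770 was above every control, and the other 3 Prmt5-null libraries were below every control. Without it the difference was −0.31 with an adjusted p of 0.027. In the beta ring the highest difference was that of Psmb6, given above. Psmb2 had the lowest difference, at 5888, 5126, 5823 and 5017 against 6307, 6359, 5762 and 5723 (−0.15, SE 0.08, adjusted p = 0.25), and did not pass. Psma8, a testis form of the alpha ring, had at most 5.1 normalized counts in any library, and Psmb11, the thymus-specific beta subunit, had 1.1 in library PRMT5-10770 and 0 in the other 7, so neither was tested.

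In the base, 1 of 9 genes (11.1%) fell and none rose, a share near the 13.8% of all genes that passed in either direction and the 7.33% that were lower. Psmd1 (ENSMUSG00000026229, chr1:86064387-86139151, plus strand) encodes the largest non-ATPase subunit and is a scaffold on which other proteasome proteins dock. It was at 9134, 8743, 10418 and 8706 in the Prmt5-null libraries and 12265, 12251, 11376 and 11583 in the controls. The groups did not overlap, although PRMT5-10770 was again the highest Prmt5-null library. The mean was 9251 ± 802 against 11869 ± 457 (SD, n = 4 each), a difference of −0.36 (SE 0.08, limma adjusted p = 0.0091), and Psmd1 fell by 22.2%. Htr2b lies within the locus on the opposite strand, overlapping 12945 bases. On the same strand Gm21972, Gm37914 and Gm22786 overlap the locus by 5515, 2679 and 122 bases. Reads from any shared exon are uncertain.

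The 6 ATPase genes Psmc1 to Psmc6, which form the unfolding ring, had differences between −0.02 and 0.02. Psmd2, the scaffold paralogous to Psmd1, was at 16161, 14087, 16638 and 15167 in the Prmt5-null libraries and 17033, 15879, 16616 and 16115 in the controls (−0.08, SE 0.07, adjusted p = 0.50). The highest difference of the base was that of Psmd4, a ubiquitin receptor, at 7090, 6566, 8133 and 6587 against 6222, 6585, 6454 and 5835 (0.17, SE 0.08, adjusted p = 0.19). It did not pass. Psmd1 therefore fell alone among the 9 base genes at this threshold, and no test of the difference between base genes was made.

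In the lid, 2 of 8 genes (25%) fell, against 7.33% of all genes that were lower and 13.8% that passed in either direction, a list too short to read the share from. Psmd11 (ENSMUSG00000017428, chr11:80428615-80473248, plus strand), whose protein clamps the lid to the core, was at 2690, 2343, 2840 and 2671 in the Prmt5-null libraries and 3666, 3275, 2924 and 3256 in the controls. The groups were separated by only the gap between 2840 and 2924. The difference was −0.31 (SE 0.09, limma adjusted p = 0.036), and Psmd11 fell by 19.6%.

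Psmd7 (ENSMUSG00000039067, chr8:107580381-107588464, minus strand) encodes the partner of the lid deubiquitinase. It was at 3103, 2607, 3058 and 2974 in the Prmt5-null libraries and 3636, 3312, 3385 and 3762 in the controls, with no overlap. The difference was −0.26 (SE 0.08, limma adjusted p = 0.048), and Psmd7 fell by 16.8%. Psmd14, the deubiquitinase itself, was at 7544, 7182, 9282 and 7346 against 8002, 8985, 7703 and 7892 (−0.06, SE 0.09, adjusted p = 0.71). Against 8066 of all 16250 genes tested, 7 of the 8 lid genes had a negative difference, with a median of −0.07. Psmd6 had the only positive one, at 6424, 6424, 7385 and 6028 against 6322, 6543, 6513 and 6354 (0.03, SE 0.08, adjusted p = 0.86).

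None of the 7 assembly chaperones passed. Psmg4, which with Psmg3 helps build the alpha ring, was at 427, 396, 544 and 411 in the Prmt5-null libraries and 485, 649, 605 and 589 in the controls (−0.39, SE 0.13, adjusted p = 0.068). Its groups overlapped only through library PRMT5-10770 against control CTRL-10650. Psmg2, partner of Psmg1 in the same step, did not overlap between groups, at 1984, 1709, 2060 and 1838 against 2426, 2281, 2220 and 2119 (−0.25, SE 0.08, adjusted p = 0.062). Psmd10, a chaperone of the base, had the highest difference, at 1335, 1145, 1781 and 1240 against 1101, 1358, 1209 and 1218 (0.15, SE 0.13, adjusted p = 0.46).

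None of the 5 activators passed either. Psme3, which forms the nuclear cap, did not overlap between groups, at 9055, 8415, 8613 and 8663 in the Prmt5-null libraries and 9818, 9152, 9500 and 9611 in the controls, but the difference was −0.13 (SE 0.06, adjusted p = 0.20). Psme2, of the interferon-inducible cap, had the highest difference, at 3103, 2882, 4670 and 3285 against 2926, 3603, 2794 and 2691 (0.20, SE 0.14, adjusted p = 0.39). Psme2 and Psme2b are near-identical copies, so that reads could have been split between them or dropped and both are uncertain. The inhibitor Psmf1 was at 1497, 1321, 1270 and 1283 against 1662, 1581, 1464 and 1581, overlapping by library PRMT5-10617 (−0.23, SE 0.08, adjusted p = 0.091). Psmc3ip, which is no subunit, was at 719, 680, 865 and 789 against 855, 974, 847 and 771 (−0.18, SE 0.11, adjusted p = 0.30).

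Proteasome genes also shared a pattern across libraries of the same genotype. Among the Prmt5-null libraries, PRMT5-10770 was the highest for 41 of 48 members (85.4%), against 33.3% of all genes tested. Library PRMT5-10618 was the lowest for 34 members (70.8%), against 29.1% of all genes. Among the controls, CTRL-10370 was the highest for 34 members (70.8%), against 28.3% of all genes, and CTRL-10597 the lowest for 28 (58.3%), against 27.3%. The members share each library and its size factor.

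The median member stood 0.19 above the control mean (log2) in library PRMT5-10770, 0.02 below it in PRMT5-10617, 0.10 below it in PRMT5-10771 and 0.17 below it in PRMT5-10618. Over the controls the same median ran from 0.08 below to 0.10 above. For the 14 core genes the median in PRMT5-10770 was 0.33 above the control mean, and this library was the highest of all 8 for 13 of them. Over all 16250 genes tested its median was 0.004 above the control mean, and it was the highest of all 8 for 3554 genes. Together the tested members took up 0.798% of the normalized counts of PRMT5-10770, 0.660% to 0.726% of the other Prmt5-null libraries and 0.698% to 0.762% of the controls. Psmb9, Psmd1, Psmd11 and Psmd7 were below every control in PRMT5-10770 as well. The fibroblast marker sum of PRMT5-10770, 10807, was within the range of the Prmt5-null group.

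**Figure D4:**
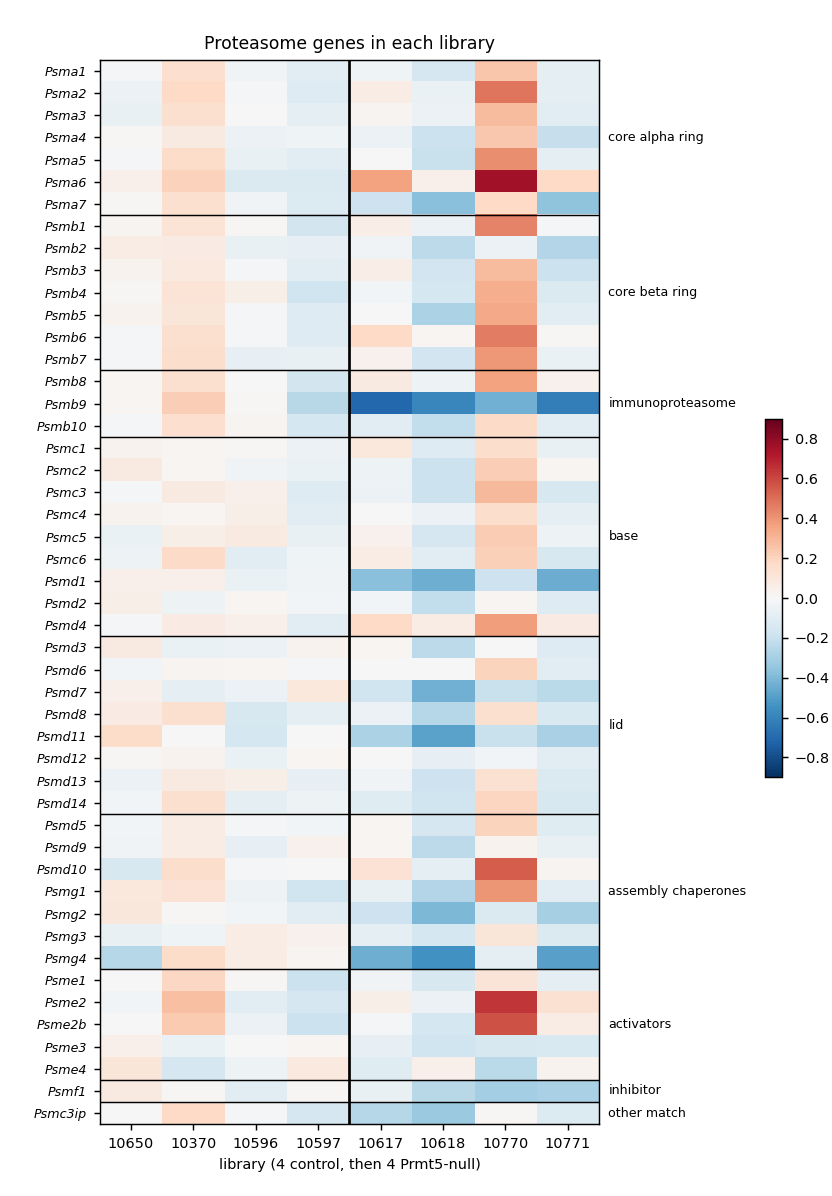
Log2(normalized count + 1) of each tested member in each library, minus the mean of the 4 controls, by class; columns are single libraries, controls on the left. Most rows are red in PRMT5-10770, with a median of 0.19 above the control mean, and blue in PRMT5-10618. Rows that are blue in all 4 Prmt5-null libraries include Psmb9, Psmd1, Psmd11 and Psmd7.

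The levels of the subunits within control cells were compared per kb of exon, since longer genes collect more reads. Among the 14 core genes the mean ranged from 651 normalized counts per kb for Psma3 to 8282 for Psma6, with a median of 3435. Psma6 was followed by Psmb4 (6173 ± 544, SD, n = 4) and Psmb2 (5015 ± 284), and the ranges of these 3 did not overlap. The order changes with the length used: by the longest transcript Psmb4 (10180) stood above Psma6 (9808), and Psmb2 (7029) stood below Psmb6 (8938), Psma7 (8848), Psma1 (8692), Psmb7 (8468), Psmb3 (7517) and Psma4 (7332). Psmb8, the highest immunoproteasome gene, came next at 4526 ± 391, and its range overlapped those of Psmb2 above it and the ATPase gene Psmc1 (4436 ± 112) below it. Psmb9 stood at 1651 ± 219 and Psmb10 at 1454 ± 131, with ranges that overlapped.

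The base genes had a median of 3444 per kb and the lid genes one of 1997. The chaperones had a median of 832, and the inhibitor Psmf1 stood at 244 ± 13. Psme2b was listed at 9216 per kb, above the others by this length but not by the longest transcript, and is uncertain because of its copy. In the whole order of 48 members, only 7 were separated from the next gene by ranges that did not overlap. Exon lengths were unions over all transcripts, which lowers the value of genes with many retained-intron forms: by the longest transcript the medians were 7424 for the core, 4342 for the base, 3121 for the lid and 854 for the chaperones.

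Of the 10 partner genes, 1 (10%) fell, near the share of all genes (13.8%, or 7.33% lower). Zfand5, an activator of the 26S proteasome, was at 2577, 3466, 2511 and 2903 in the Prmt5-null libraries and 3603, 4106, 3961 and 4265 in the controls (−0.48, SE 0.10, limma adjusted p = 0.0097). The groups did not overlap. Adrm1, a ubiquitin receptor of the base, was at 1692, 1780, 1565 and 1640 against 1857, 1986, 2007 and 2035, also without overlap, but at −0.24 (SE 0.07, adjusted p = 0.053) it did not pass. Pomp, which guides core assembly, was at 7017, 6272, 8666 and 6308 against 6792, 8170, 7056 and 6382 (−0.01, SE 0.11, adjusted p = 0.95). None of the 6 genes listed for the control of proteasome transcription passed. Nfe2l1, encoding the factor Nrf1 that raises proteasome genes when the protease is blocked, was at 4427, 4108, 4603 and 4556 against 4855, 5031, 4566 and 4892 (−0.13, SE 0.07, adjusted p = 0.24). None of the 11 ubiquitin and shuttle genes passed.

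Of 8 genes of the class I peptide pathway, 1 (12.5%) fell, again near the share of all genes (13.8%, or 7.33% lower). B2m, the light chain of MHC class I, was at 18361, 19050, 17073 and 19536 in the Prmt5-null libraries and 31854, 29918, 25844 and 27195 in the controls (−0.63, SE 0.09, limma adjusted p = 0.00068). The groups did not overlap, and B2m fell by 35.4%. Nlrc5, which drives class I genes, ranged from 3576 to 7255 against 3616 to 4403 (0.32, SE 0.17, adjusted p = 0.23), and Irf1 differed by 0.14 (SE 0.11, adjusted p = 0.43). Tap1, Tap2, Tapbp and Erap1 did not pass either.

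Splicing of the proteasome genes was read from the event tables, which list only events that the authors had already selected, so that the values describe those events and were not tested. Of the 48 members with a mean above 50, 2 (4.17%) had an event, against 11.4% of the 13300 genes above that mean. The members had 2 rows among 913 skipped exons, 1 row among 350 pairs of mutually exclusive exons, and none among the 128 alternative 3′ sites, 190 alternative 5′ sites and 337 retained introns. The tables list 4 values per group without naming the library of each, and their headers only number the groups: the first was read as the control side because a legend of the study gives inclusion differences as WT/KO. An exon listed for Prmt5 itself was included at 0.989 to 1.00 in the first group and 0.027 to 0.304 in the second.

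An 85-base exon of Psma4 (chr9:54951344-54951428, plus strand, GRCm38), which encodes another alpha subunit, was included more in Prmt5-null cells. It is an exon of 1 of the 7 annotated transcripts. The inclusion level is the share that holds the exon among the reads at this event, after correction for length. It does not give the share of all transcripts of the gene. The level was 0.592, 0.372, 0.400 and 0.372 in Prmt5-null cells and 0.062, 0.153, 0.102 and 0.165 in the controls. The groups did not overlap. In total, 59 reads supported inclusion and 44 skipping in Prmt5-null cells, against 17 and 74 in the controls, with 16 to 34 reads behind each value. The total expression of Psma4 was 8216, 7457, 10092 and 7399 in the Prmt5-null libraries and 8619, 9013, 8240 and 8294 in the controls, a difference of −0.05 (SE 0.10, adjusted p = 0.76).

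The printed 74-base exon of Psma3 (chr12:70984672-70984745, plus strand), which encodes an alpha subunit, was included less. Its length is not a multiple of 3, so that skipping it shifts the reading frame. The inclusion level was 0.814, 0.790, 0.633 and 0.849 in Prmt5-null cells and 1.00, 1.00, 0.883 and 1.00 in the controls, without overlap. It rested on 9 skipping reads in Prmt5-null cells and 1 in the controls, beside 46 inclusion reads in each group, with 10 to 16 reads behind each value. Thus most reads at this event still included the exon, which does not give the share of all Psma3 transcripts.

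The same exon was also listed as mutually exclusive with a 73-base exon at chr12:70986863-70986935. The inclusion level was 0.764, 0.857, 0.642 and 0.666 in Prmt5-null cells and 1.00, 0.777, 0.874 and 0.888 in the controls, and the groups overlapped. This event shares reads with the skipped exon and is no second piece of evidence. The total expression of Psma3 was 2578, 2438, 3086 and 2373 in the Prmt5-null libraries and 2418, 2792, 2533 and 2396 in the controls, a difference of 0.04 (SE 0.09, adjusted p = 0.81). None of the 4 members that fell had an event in these tables.

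**Figure D5:**
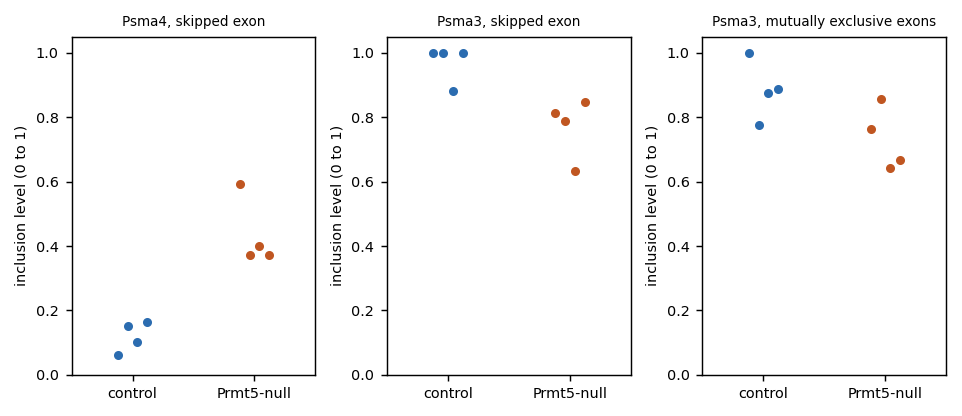
Inclusion level (0 to 1) of the listed events in Psma4 and Psma3, with 1 point for each of the 4 values per group; control in blue and Prmt5-null in orange. The Psma4 exon lies at 0.062 to 0.165 in controls and 0.372 to 0.592 in Prmt5-null cells, the skipped Psma3 exon is lower in all 4 Prmt5-null values, and the mutually exclusive pair overlaps.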

How the data were processed

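RNA from day 4 iGBs of 4 Prmt5-null and 4 control mice was depleted of ribosomal RNA and sequenced by the submitters. The authors trimmed reads with Trimmomatic 0.32, aligned them to mm10 with STAR 2.3.0e, counted unique reads on Ensembl exons with featureCounts 1.4.4 and divided the counts by DESeq2 1.14.1 size factors. The deposited signal is thus a normalized count per gene. Every value came back as whole reads to within 0.01 (100% in each library), and the recovered reads served for the edgeR and DESeq2 alternatives. The authors made the splicing tables with rMATS, keeping 1 event of each type per gene after their own thresholds. Inclusion levels and read numbers were used, and the columns of differences, p-values and false discovery rates were not.

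Here log2(normalized count + 1) was fitted with limma 3.58.1 (moderated variances with a trend) for genes with a mean of at least 10, with Benjamini-Hochberg adjustment over all 16250 genes and a threshold of 0.05. The script was tested on simulated data. Each library is 1 mouse. Ratios were compared by an exact permutation test (SciPy 1.17.1). Gene models came from GENCODE on GRCm38, the build of the files. All 50 members had one. R 4.3.3, edgeR 4.0.16 and DESeq2 1.42.0 were used.

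Full values are given for members past the test, the catalytic beta pairs, members with a splicing row, and the largest rise and fall of each class. Of the partner, control, ubiquitin and class I lists, the called genes and Nfe2l1, Pomp and Adrm1 are given. The called genes of the marker lists are named without the values of single libraries. Tap1, Nlrc5, Irf1, Psmd2, Psmd14, Psmg2 and Psmd5 were named after their values were seen. One listed gene is not reported here. Members and lists were chosen with earlier results of these data known. Marker lists covered B cells, germinal center-like cells, plasma cells, fibroblasts, T cells and myeloid cells. Of the germinal center-like list 1 of 4 genes (25%) was higher, Fas (0.47, limma adjusted p = 0.0050), and 3 had the higher mean. Of the plasma cell list 2 of 4 (50%) were lower, Prdm1 (−0.48, adjusted p = 0.043) and Xbp1 (−0.45, adjusted p = 0.030), and 2 had the higher mean. Of the B cell list 1 of 7 (14.3%) was lower, Cd79a. Lck, the 1 T cell marker tested, was lower (−0.94, adjusted p = 0.00085). Of all genes tested 13.8% passed, and these lists are too short to read shares from.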

Additional observations from a re-analysis of the deposited data

Results flagged for a closer look

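Of 96 groups of 4 libraries (48 members in 2 groups), 1 held a library far from the other 3 by Dixon's criterion, whereas chance flags about 1 in 20 groups. Psmd5, a chaperone of the base, was at 3849 normalized counts in control library CTRL-10370 and at 3604 to 3633 in the other 3 controls. The gap took up 0.880 of the range. The Psmd5 difference between the groups was −0.01 (SE 0.08, limma adjusted p = 0.95).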

How the results depend on the processing

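The count of 4 members past the test was 2 to 7 when 1 library was left out (7 without Prmt5-null PRMT5-10770, 2 without Prmt5-null PRMT5-10617 or PRMT5-10771 or control CTRL-10370 or CTRL-10597). It was 2 without the variance trend, 2 to 6 over 18 placements of the mice in 2 experiments, 2 at an adjusted p below 0.01 and 1 with a change of at least 1.5-fold. The cause was not tested. Each placement put 2 mice of each genotype in each experiment, which no label gives. Unequal splits were not run, and an experiment that ran with genotype could not be told apart from it. Psmb9 and Psmd1 passed in all 18 placements and in the other 9 fits; Psmd11 passed in 13 placements and 8 fits, Psmd7 in 7 and 6. Psmg2 passed in 3 placements, Psmg4 in 2 and Psma6 in 1. DESeq2 called 6 members, adding Psmg2 and Psmg4, and edgeR 4. Except for the 1.5-fold rule, the share of all genes past the test under these alternatives is not given here. The member median, −0.02, lay between −0.10 (without PRMT5-10770) and 0.03 (without PRMT5-10618), always less than the spread between libraries. No scaling moved the median of all genes by over 0.1. The Prmt5 fall kept its direction and side of the threshold under the alternatives run. The 3 ratio differences kept their direction. Their p-values were the same with a pseudocount of 1, and their other alternatives were values with no test. The core median per kb rose from 3435 to 7424 with the longest transcript as length. Junction reads alone moved each inclusion difference by less than the spread of the controls. No paired analysis was possible because the labels give mouse numbers that the groups do not share. The splicing values rest on 7 to 34 reads each, which limits their precision.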
